A study of Mus musculus with 2 samples.

Results

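The 4 Hox gene clusters of the mouse were examined for regions in which chromatin immunoprecipitation (ChIP-seq) gave more histone H4 tags after SAHA than after its solvent DMSO. Members were the regions of the authors' list that overlapped 1 of 4 windows of build mm9 by at least 1 bp. The windows were chromosome 6, 52050000 to 52300000 (HoxA), chromosome 11, 96000000 to 96290000 (HoxB), chromosome 15, 102690000 to 102930000 (HoxC), and chromosome 2, 74440000 to 74670000 (HoxD). Of the 61400 regions in the list 36 were members: 21 at HoxA, 12 at HoxB, 3 at HoxC and 0 at HoxD.

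Both groups were MC3T3 sc4 cells, a subclone of an osteoblast line from mouse calvaria, in osteogenic medium with ascorbic acid and beta glycerol phosphate. The SAHA group received 20 µM suberoylanilide hydroxamic acid, a drug that blocks histone deacetylases, on day 4 for 2 hours, and the DMSO group was given the solvent alone. SAHA or DMSO was also present while collagenase freed the cells (40 min), and chromatin was sonicated to 200 to 500 bp. The labels name histone H4 as the target of the antibody, and the design text of the series speaks of acetylated H4. Each group was 1 library, so no difference below has a replicate check, and its spread between cultures is unknown. The file headers give 123676661 kept tags for SAHA (97.4% of its tags) and 76214516 for DMSO (65.6%), so that 1 DMSO tag counted as 1.62 SAHA tags. The unequal loss of duplicates was not tested as a source of any value below. In these bulk samples, more cells with acetylated chromatin and more acetylation per cell cannot be told apart. Tags were scaled to equal depth, so a rise shared by the whole genome would not show. A list of regions carries no expression, so the osteoblast identity was not checked against markers.

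Hox genes encode homeodomain transcription factors that give cells their position along the body axis and along the limb. They lie in clusters in which the gene order mirrors the order of expression, and genes of the same number in different clusters are paralogs. In cells that do not use them, Hox clusters are a classic target of Polycomb repression, which is marked by histone methylation and low histone acetylation. The cranial neural crest that forms the frontal part of the skull vault is known for its lack of Hox expression. Histone deacetylases remove the acetyl groups that SAHA preserves.

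The 38 Hox genes considered were 10 at HoxA, 10 at HoxB, 9 at HoxC and 9 at HoxD, and all 38 were found in the RefSeq gene table of GRCm38.p6. By rising position, HoxA runs from Hoxa2, a patterning gene of the pharyngeal arches, to Hoxa13, a gene of the hand and foot. The other 3 clusters run the opposite way, from Hoxb13, Hoxc13 and Hoxd13 to Hoxb1, Hoxc4 and Hoxd1. The nearest coding genes outside the clusters are Skap2 and Evx1 at HoxA, Ttll6 and Skap1 at HoxB, Calcoco1 and Smug1 at HoxC, and Evx2 and Mtx2 at HoxD. That table is of another build than the list, so no member region was placed at a gene, and a window may also hold neighbouring genes.

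Promoter sequences of some of these genes are given as examples and do not describe the windows. Sequences are from RefSeq, GRCm38.p6, and these positions cannot be set beside those of the mm9 regions. Shown are the 250 bases before the start, 5′ to 3′ on the strand of the gene, with each CG dinucleotide, the site of DNA methylation, in capitals. Hoxa13 and Hoxd13, paralogs that pattern the digits, are from HoxA, whose window held the most regions, and HoxD, whose window held none. Hoxb4, Hoxc4 and Hoxd4, which act in the hindbrain and neck, are 1 paralog group across the other clusters. They were chosen after their base composition was seen.
Hoxa13 (HoxA, chr6:52260881-52261130, minus strand): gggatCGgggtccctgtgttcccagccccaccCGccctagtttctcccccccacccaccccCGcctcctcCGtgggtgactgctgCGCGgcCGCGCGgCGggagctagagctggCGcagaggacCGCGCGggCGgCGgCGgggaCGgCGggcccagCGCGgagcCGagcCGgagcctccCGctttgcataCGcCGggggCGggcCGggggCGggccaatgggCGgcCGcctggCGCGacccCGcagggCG
Hoxd13 (HoxD, chr2:74667975-74668224, plus strand): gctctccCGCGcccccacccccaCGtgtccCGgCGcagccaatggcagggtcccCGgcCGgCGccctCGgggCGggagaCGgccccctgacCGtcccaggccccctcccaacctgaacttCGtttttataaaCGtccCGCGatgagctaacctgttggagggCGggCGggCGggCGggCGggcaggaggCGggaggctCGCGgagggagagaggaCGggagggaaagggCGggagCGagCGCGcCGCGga
Hoxb4 (HoxB, chr11:96318017-96318266, plus strand): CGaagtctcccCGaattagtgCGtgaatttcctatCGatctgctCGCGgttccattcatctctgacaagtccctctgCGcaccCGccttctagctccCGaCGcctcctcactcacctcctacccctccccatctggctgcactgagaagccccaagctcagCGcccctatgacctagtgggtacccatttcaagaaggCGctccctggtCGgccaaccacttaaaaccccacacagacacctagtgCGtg
Hoxc4 (HoxC, chr15:103034145-103034394, plus strand): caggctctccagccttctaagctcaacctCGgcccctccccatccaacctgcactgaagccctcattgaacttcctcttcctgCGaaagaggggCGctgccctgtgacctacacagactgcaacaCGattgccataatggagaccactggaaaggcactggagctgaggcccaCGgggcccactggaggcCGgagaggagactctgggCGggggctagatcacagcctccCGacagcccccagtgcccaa
Hoxd4 (HoxD, chr2:74721728-74721977, plus strand): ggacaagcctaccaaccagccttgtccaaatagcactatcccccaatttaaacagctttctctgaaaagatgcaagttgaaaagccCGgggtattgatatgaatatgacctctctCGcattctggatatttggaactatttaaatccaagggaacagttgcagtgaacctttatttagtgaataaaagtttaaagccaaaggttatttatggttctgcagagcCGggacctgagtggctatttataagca

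The CG counts of HoxA and HoxD promoters overlapped over most of their range. Whether CG counts relate to the number of regions in a window was not tested. The promoter table held 24 starts of 22 of the 38 genes, 10 each for HoxA and HoxD, 3 for HoxB and 1 for HoxC. CG was counted as those 2 letters, which read the same on both strands. Hoxa13 held 35 and Hoxd13 held 31, the highest counts of their clusters. The median was 15.5 at HoxA (range 3 to 35) and 12.5 at HoxD (range 2 to 31). The 3 HoxB promoters held 7 to 14, and Hoxc4 held 8. Over all 32851 promoters of the table the median was 6 (quartiles 2 and 16), and 92.1% held at least 1 CG, as did all 24 Hox starts. The median share of G and C was 57.0% at HoxA and 58.0% at HoxD, against 52.4% over all promoters.

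**Figure D1:**
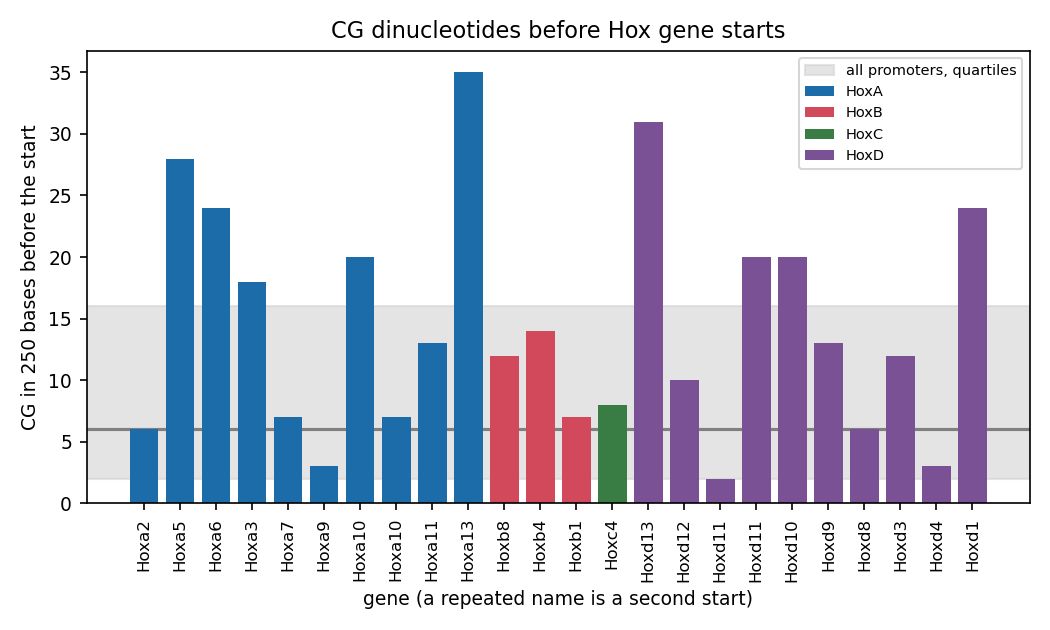
CG dinucleotides in the 250 bases before each Hox gene start of the RefSeq table (bars, 24 starts, coloured by cluster), with the median and quartiles of all 32851 promoters (grey line and band). Hoxa13 with 35 and Hoxd13 with 31 are the tallest bars, and both HoxA and HoxD reach down to 2 or 3.

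HoxA carried by far the most SAHA-high chromatin of the 4 windows and HoxD carried none. Regions covered 48.4 kb or 19.4% of the 250 kb at HoxA, 16.7 kb or 5.76% of the 290 kb at HoxB, and 3.78 kb or 1.57% of the 240 kb at HoxC. At least 1 region was present in 52.3% of other windows of that size on the chromosome of HoxA, 71.7% on that of HoxB and 54.9% on that of HoxC. Per Mb, there were 84.0 regions at HoxA, 41.4 at HoxB and 12.5 at HoxC. HoxA regions held 10443 SAHA tags, HoxB regions 2764 and HoxC regions 577. Regions of 1 library are not replicates, so the windows were not tested against each other. The authors' false discovery rate (FDR, taken up below) was at least 58.23% for every listed region. SAHA-high here thus means no more than a place in the list.

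**Figure D2:**
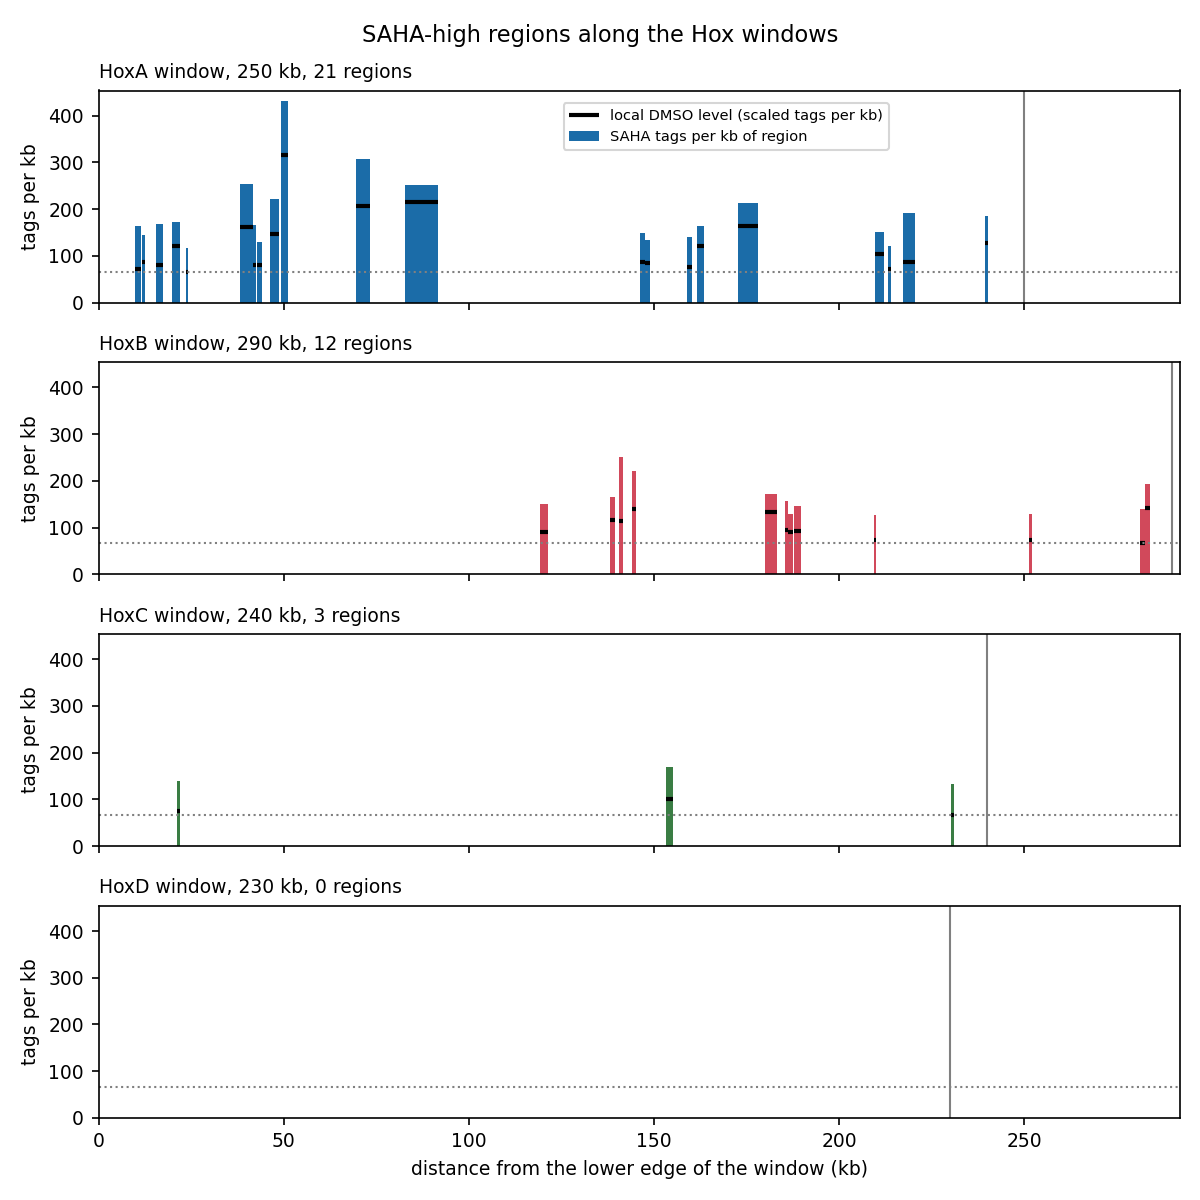
SAHA tags per kb of each region (coloured bars, as wide as the region) and the local DMSO level (black lines, scaled tags per kb) by distance from the lower edge of each window in kb, with the genome average of 66.1 tags per kb (dotted) and the upper edge (grey line). Regions spread over most of HoxA, lie in the upper part of HoxB, number 3 at HoxC and are absent at HoxD.

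Set beside windows of the same size along its own chromosome, HoxA ranked higher by its number of regions than HoxB and HoxC did. Of 583 other 250 kb windows on chromosome 6, 5.15% held at least as many regions as the 21 at HoxA, and their median was 1 (quartiles 0 and 8). By covered share 7.72% of them were as high, and by SAHA tags in regions 9.95%. On chromosome 11, 35.4% of 407 windows held at least the 12 regions of HoxB, with a median of 7 (quartiles 0 and 15). On chromosome 15, 47.5% of 415 windows held at least the 3 regions of HoxC, with a median of 2 (quartiles 0 and 10.5). These ranks are a description of 2 libraries. Empty windows are among those compared. Among windows with at least 1 region, the share as full was 9.84% for HoxA, 49.3% for HoxB and 86.4% for HoxC, which puts HoxC on the low side. Mappable sequence per window was not tested.

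**Figure D3:**
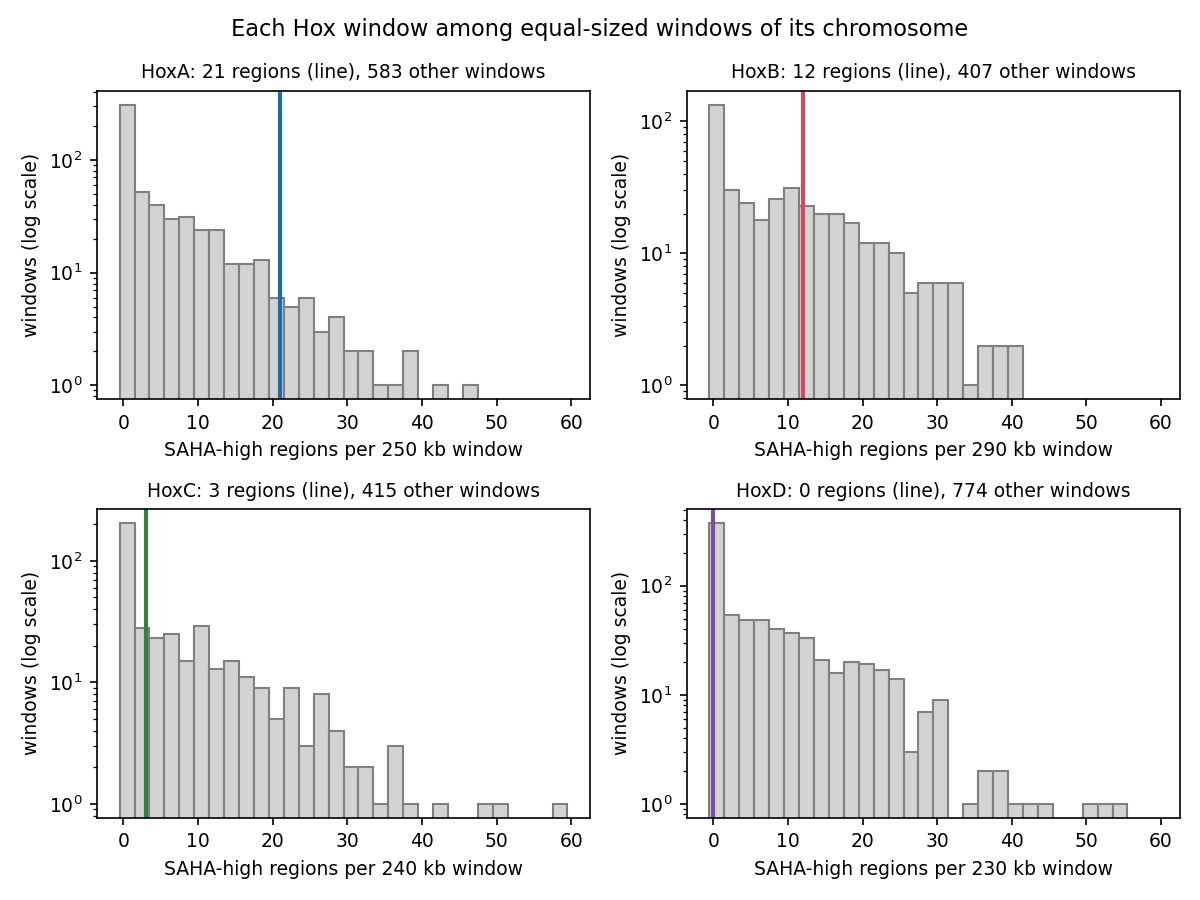
Number of SAHA-high regions (x axis) in windows of the size of each Hox window along its chromosome (grey histogram, log scale), with the Hox window as a coloured line. The line lies at 21 for HoxA, at 12 for HoxB, at 3 for HoxC and in the tallest bar, at 0, for HoxD.

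HoxD was empty of SAHA-high regions and lay in a long stretch without any. At least 1 region was present in 60.3% of 774 other 230 kb windows on chromosome 2, and 39.7% were empty like HoxD. The nearest region below ended at 73758882, 681.1 kb from the window, and the nearest above began at 74720127, 50.1 kb from it. The gap between them was 961.2 kb, and 32 of the 4925 gaps on chromosome 2 (0.650%) were as long, against a median gap of 2.94 kb. By length, such gaps are common: they made up 38.8% of all the sequence in gaps on that chromosome. Both windows next below HoxD were empty too, while the window next above held 13 regions and 7.02% of it was covered. Of the 2 regions that bound the gap, the lower held 691 SAHA tags with a summit fold of 2.76 and the upper 112 tags with a fold of 3.66, against list medians of 215 tags and a fold of 3.93.

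An empty window does not show that H4 acetylation was low or unchanged at HoxD. The list holds only regions with more SAHA than scaled DMSO tags at a score of at least 50, so acetylation equal in both libraries, or higher in DMSO, leaves no region. In 1 kb with a DMSO level at the genome average (66.1 tags), at least 104 SAHA tags, 1.57 times that level, would be needed to pass. At 3 times the average level it would take 261 tags, or 1.32 times. In 5 kb at the average it would take 411 tags, or 1.24 times. Smaller differences at HoxD would not be detectable at this depth.

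In the values that follow, score (10 times the −log10 of a Poisson p), summit fold and FDR are the authors' own for each region. The fold sets the highest SAHA point against the local DMSO background. The ratio sets all SAHA tags of a region against the local DMSO level recovered from its score, in tags at SAHA depth. That level is the highest of several backgrounds: the region itself, 1 kb, 10 kb or the genome average. Where it was matched to 1 kb, 10 kb or the genome average it is an upper limit of the region's own DMSO tags, so the ratio is at least the value given. Of the 36 levels 3 matched the region's own DMSO tags and are exact counts, 23 matched another background, and 10 matched none and are approximate. Intervals of single ratios, of tags and of densities are 95% and cover the counting of tags only.

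Hox regions had lower summit folds and lower ratios than the list as a whole, by their medians. The median fold of the 36 regions was 3.45 (quartiles 3.03 and 4.15), against 3.93 (3.37 and 4.72) over all 61400. A fold of at least 4 was reached by 10 of 36, against 47.1% of all regions, and a fold of at least 5 by 2, both at HoxA, against 19.0%. The ratio was at least 2 in 7 of 36, against 28.0% of all regions with a recovered level, and its median was 1.64 against 1.80. A score of at least 100 was reached by 20 of 36, against 62.5%. Length was close to that of the list, with medians of 1316.5 and 1337 bp, and 2 of 36 regions were longer than 5 kb, against 7.85%. Within their own chromosomes, 87.2% of HoxA-sized windows with a region had a median fold as high as the 3.37 of HoxA. The share was 71.6% for the 3.69 of HoxB and 88.6% for the 3.43 of HoxC. By median ratio, 66.6% of such windows were as high as HoxA and 84.9% as HoxB. HoxC went the other way, with a median ratio of 1.84, above that of the list, and 31.6% of windows as high.

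Pooled over the regions of each window, SAHA density and DMSO level fell from HoxA to HoxC. Over all regions of a window, SAHA tags stood at 215.8 per kb at HoxA (interval 211.7 to 220.0), 165.4 at HoxB (159.3 to 171.7) and 152.8 at HoxC (140.6 to 165.8). The DMSO level used by the caller, an upper limit in many regions, summed over the same regions to 2.26, 1.61 and 1.30 times the genome average. The density intervals of HoxB and HoxC overlap and that of HoxA lies above both, by counting error alone. Over the whole list, regions held 213.0 tags per kb, close to the value of HoxA. On its own chromosome, 47.9% of other windows with a region were at least as dense as HoxA. The share was 81.2% for HoxB and 88.2% for HoxC. The median ratio was 1.60 at HoxA (range 1.17 to 2.29), 1.62 at HoxB (1.29 to 2.21) and 1.84 at HoxC (1.68 to 2.00). These ranges overlap widely, and the values mix lower limits with exact and approximate ratios, so the clusters were not ordered by ratio. At a score of at least 100 the median at HoxB was 1.88, above the 1.84 of HoxC.

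**Figure D4:**
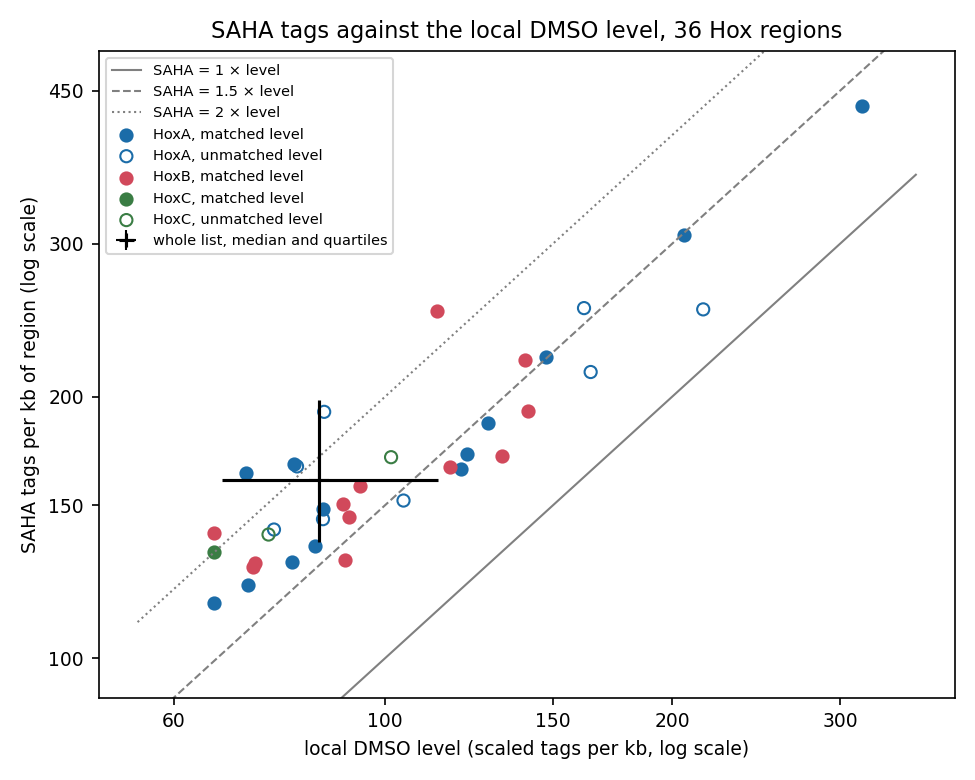
SAHA tags per kb of each of the 36 Hox regions (y axis, log scale) against the local DMSO level in scaled tags per kb (x axis, log scale), filled where the level matched a background and open where it did not, with lines at 1, 1.5 and 2 times the level and a cross for the median and quartiles of the whole list. The points of HoxA reach the highest levels, with 1 at 316.1 tags per kb, and every point lies above the line at 1.

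The Hox regions of high DMSO level lay at HoxA and HoxB. The level was at least 2 times the genome average in 9 of 36 regions, 6 at HoxA and 3 at HoxB, against 16.1% of all regions. It was at least 3 times the average in 3 of 36, all at HoxA, against 3.95%. At 20 of the 36 regions it was under 1.5 times the average. The median level was 1.38 times the average in the Hox regions, against 1.29 over the list (quartiles 1.02 and 1.72). None of these shares was tested, and counts this small differ little from the shares in the list. Since that level is the denominator of the ratio, a region of high level and many tags passes the cutoff at a lower ratio by construction.

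At HoxA, 3 consecutive regions had the highest DMSO levels of all 36. HoxA region 10, counted by rising position, spans 52099158 to 52101144 and had 859 SAHA tags, or 432.3 per kb, the densest of all 36. Its level was its own DMSO count of 387 tags, 628.0 after scaling and 4.78 times the genome average. The scaled ratio was 1.37 (exact binomial interval 1.21 to 1.55). This region was thus already dense in DMSO, and its fold of 2.89 was among the lower ones of HoxA.

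HoxA region 11, 52119423 to 52123309, had 1193 SAHA tags against 493 DMSO tags of its own. Scaled, the DMSO tags came to 800.0, or 3.11 times the average, and the ratio was 1.49 (exact binomial interval 1.34 to 1.66). HoxA region 12, 52132614 to 52141595, was the longest Hox region at 8.98 kb and had the most tags, 2263 (Poisson interval 2171 to 2358). Its level was about 3.26 times the average, matched no background, and gave the lowest ratio of all 36, about 1.17 (1.12 to 1.22). Its summit lay near its upper end, at 88.4% of its length, with a fold of 4.47. Regions 11 and 12 together held 268.6 SAHA tags per kb.

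Above region 12 came the longest stretch of HoxA without a region, 54.6 kb, which splits the window into 12 lower and 9 upper regions. Of the 20 gaps between HoxA regions, 14 were 10 kb or shorter and 5 were 1 kb or shorter. Over the whole list 67.9% of gaps were 10 kb or shorter and 36.3% were 1 kb or shorter, so short gaps were not particular to HoxA. The 5 regions closest to the lower edge, 52059930 to 52074213, held 161.0 tags per kb (interval 151.8 to 170.7) over a level of 1.37 times the average. The next 5, 52088157 to 52101144, held 260.6 per kb (250.6 to 270.8) over 2.63 times the average. The denser group thus also had the higher DMSO level as the caller used it.

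HoxA region 1, 52059930 to 52061526, had the highest fold of all 36, 5.86, and the highest ratio. It held 261 SAHA tags over a level of 114.0, a ratio of at least 2.29 (Poisson interval 2.02 to 2.58). The level matched 44 DMSO tags in 1 kb or the same density over 10 kb. That level was 1.08 times the genome average, near the floor, in contrast to regions 10 to 12 of the same window. HoxA region 3, 52065417 to 52067246, was alike in size, with 306 tags, a fold of 4.87 and a ratio of at least 2.09 (1.86 to 2.33).

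The highest score of all 36 belonged to HoxA region 20 in the upper part of the window, 52267275 to 52270591. It scored 708.6 with 637 SAHA tags over 3317 bp and a fold of 5.21. Its level was about 1.31 times the average and its ratio about 2.23 (2.06 to 2.41). It was the only Hox region with an FDR of 100%. The other 35 had an FDR of 58.34 to 79.56%. FDR is taken as calls made with the libraries swapped per 100 listed regions at that score. Over the whole list the FDR ran from 58.23 to 100%, with a median of 68.1%, against a median of 67.5% for the Hox regions. The share of listed regions with an FDR of 100% was not counted. HoxA region 17, 52222713 to 52227988, was the second region longer than 5 kb, with 1126 tags, a level of about 2.48 times the average and a ratio of about 1.30 (1.23 to 1.38).

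The remaining HoxA regions were short to moderate, 587 to 3477 bp, with 68 to 879 tags. Among them, region 6 at 52088157 to 52091633 held 879 tags and region 9 at 52096145 to 52098693 held 566. Region 7 between them, 692 bp with 115 tags, had a ratio of about 2.06 (1.70 to 2.47). Region 5, 587 bp at 52073627 to 52074213, was the shortest of the window, with 68 tags over a level at the genome average and a score of 51.04, just past the cutoff.

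At HoxB all 12 regions lay above the lowest 119.1 kb of the window, and all their levels matched a background. HoxB region 3, 96140424 to 96141544, had the highest score of the window at 316.7, the highest fold at 4.75 and the highest ratio. It held 281 SAHA tags in 1121 bp over a level of 127.2, a ratio of at least 2.21 (Poisson interval 1.96 to 2.48). It stood between regions 2 and 4, 96138009 to 96139370 and 96144062 to 96145082, whose ratios were at least 1.42 (1.24 to 1.62) and 1.57 (1.37 to 1.79). The interval of region 3 lies above those of both neighbours, although all 3 lie within 7.07 kb and all 3 ratios are lower limits.

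HoxB region 5, 96180082 to 96183323, was the longest of its window at 3242 bp and held the most tags, 554. It had an exact DMSO count of 265 tags, 430.0 after scaling, so its ratio of 1.29 was the lowest at HoxB (exact binomial interval 1.11 to 1.50). Regions 6 to 8 followed, with 130, 165 and 266 tags and ratios of at least 1.67, 1.43 and 1.58. Together, regions 5 to 8 covered 74.9% of 9.57 kb. Region 9, 526 bp with 67 tags at 96209429 to 96209954, was the shortest of all 36 and had the lowest score, 50.49.

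The pair nearest the upper edge of HoxB, regions 11 and 12, was separated by 4 bp. Region 11, 96281374 to 96282638, held 176 tags over the genome average, a ratio of at least 2.10 (1.80 to 2.44). Region 12, 96282643 to 96283857, held more tags, 234, but over a level of 2.13 times the average. That level matched 87 DMSO tags in 1 kb or the same density over 10 kb. The ratio of region 12 was at least 1.36 (1.20 to 1.55). Region 12 was thus higher than region 11 both in SAHA density, 192.6 against 139.1 tags per kb, and in the DMSO level the caller used. The Poisson intervals of their tags, 205 to 266 and 151 to 204, do not overlap.

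The 3 HoxC regions were isolated, 131.2 kb and 74958 bp apart. The first, 102711175 to 102712075, held 125 tags with a score of 96.90 and a fold of 3.23. The second, 102843260 to 102845144, held 321 tags with a score of 173.6 and a fold of 4.23, the highest of HoxC. The third, 102920103 to 102921092, held 131 tags with a score of 124.7 and a fold of 3.43. Their ratios were about 1.84 (Poisson interval 1.53 to 2.19), about 1.68 (1.50 to 1.87) and at least 2.00 (1.67 to 2.37), in that order. These intervals overlap, so no HoxC region stood apart from another.

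The windows next to HoxC were much fuller than HoxC itself. The window below it held 11 regions and the window above it 26, with 14.8% and 26.3% covered, against 1.57% at HoxC. HoxA had 4 regions in the window below and 15 in that above, and HoxB had 14 and 5. Windows about as full as HoxA lay nearby on chromosome 6. The window 51300000 to 51550000 held 20 regions and 11968 SAHA tags, with 20.1% covered. The window 52550000 to 52800000 held 19 regions and 10435 tags, with 17.6% covered. HoxA itself held 21 regions and 10443 tags, with 19.4% covered. The windows starting at 51050000, 51550000, 52800000 and 53050000 held fewer regions, 9, 1, 7 and 12. A HoxC boundary set a little higher would have taken in a stronger region. The first region past its upper edge, 19.7 kb away at 102949741 to 102954507, held 1026 tags with a score of 1242.5 and a ratio of at least 2.33. The last region inside, 8.91 kb from that edge, was the third HoxC region.

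At the other edges the contrast was smaller or opposite. Below HoxA, 18.3 kb from the edge, a region held 1677 tags with a fold of 4.89 and a ratio of about 1.46, and above HoxA, 24.4 kb away, one held 250 tags with a fold of 3.11. The outermost HoxA regions inside, region 1 and region 21, lay 9.93 and 9.69 kb from the edges, with folds of 5.86 and 2.66. Below HoxB, 13.5 kb away, a region held 212 tags with a fold of 4.01, and above HoxB the next was 78.2 kb away with 310 tags and a fold of 3.23. Below HoxC, 9.38 kb away, a region held 136 tags with a fold of 3.54.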

How the data were processed

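The tools named in the submitters' processing notes are MACS 1.4.0rc2, BWA 0.5.9, CASAVA 1.7.0 and SAMtools, and the build is mm9. Per the file headers, SAHA reads were the ChIP file and DMSO reads the control, with a p cutoff of 1e-05, at most 3 duplicate tags per position, a fragment size of 141 bp and the smaller library scaled to the larger. The deposited list gives SAHA tags as whole counts per region, a score of 10 times −log10 p, a fold enrichment ratio at the summit and an FDR in percent, the last taken to be regions called with SAHA and DMSO exchanged per 100 listed. Calls in the opposite direction were not analysed here.

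From these columns the DMSO level behind each score was computed over the whole list in Python 3.11.15 (scipy 1.17.1, numpy 2.4.6, pandas 2.3.3). It is the Poisson mean at which more than the listed tags have the listed score. It was found for 61106 regions with a score under 3000, of which 75.8% matched a background within the rounding of the score (0.005). Of the 36 Hox regions 26 matched. In the 23 of these precise enough to test, fold times level gave a summit height within 0.1 of a whole number. Of the 10 unmatched regions 0 did, so their levels, ratios and summit heights are approximate beyond the printed intervals. For the 10 unmatched regions, 15 more tags would move the ratio by at most 4.60%. In a simulated list of 18197 regions the background was found correctly for 99.8%, where 1 kb was not told from 10 kb. All simulated levels came from the backgrounds that were searched, so this checks the computation only. It cannot speak for levels that match none, as in the 10 unmatched regions.

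Windows of equal size were laid from the edges of each Hox window over the span of listed regions. Named regions were those with the highest fold, score, ratio or tags, the longest and the lowest ratio per window, and any region of HoxB and HoxC. HoxA regions 3, 5, 6, 7, 9, 10, 11, 17 and 21, and those outside the windows were named after their values were seen. The windows, genes and measures were chosen with earlier results of these data known. Gene positions in mm9 were not used here.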

Additional observations from a re-analysis of the deposited data

How the results depend on the processing

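With 1 library per condition no replicate could be left out. No paired analysis was possible because each group is 1 sample. At a score of at least 100, HoxB kept 4 of its 12 regions, and 53.8% of other windows then held as many, its median ratio was 1.88 and HoxA density was 228.0 tags per kb. At that score 46.5% of windows were as empty as HoxD. These follow from fewer regions. Among windows with at least 1 region, the share as full was 9.84% for HoxA, 49.3% for HoxB and 86.4% for HoxC, and 0% were as empty as HoxD, which is so by construction. Without depth scaling, each ratio is 1.62 times larger by construction, with medians of 2.59, 2.64 and 2.98 at HoxA, HoxB and HoxC. Taking regions by their summit, shifting the windows, joining across 1 kb or adding 5 tags to both sides moved no count of regions by over 1.5 times. None of these moved a share, median or density beyond its interval. The intervals of the medians run between ranked ratios of the regions, 1.45 to 1.75 at HoxA and 1.42 to 1.76 at HoxB. At HoxC the interval is the range of all its regions, 1.68 to 2.00. The intervals of the shares are counted over windows. Regions and windows are not replicates, so a value inside its interval shows no stability between cultures. Keeping only matched levels left the median ratio of HoxA at 1.60, from 13 regions. At HoxB all 12 levels matched, so that setting changed nothing. At HoxC it left 1 region, whose ratio of 2.00 is the upper end of the interval, so the HoxC median could not be tested this way. Start sites near regions were not run, since genes were not placed in mm9. Depth limits the list to the differences given for HoxD.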

Other observations

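The place of the summit within a region was described for the Hox regions as well. It lay in the outer 25% of the length at either end in 9 of 36 regions, 6 at HoxA and 3 at HoxB, against 22.3% of all regions. The most one-sided were HoxB region 5, with its summit at 12.1% of its length, HoxA region 3 at 13.2% and HoxA region 12 at 88.4%. The median summit height was 49.8 overlapping fragments in the Hox regions, recovered from fold and level, against 50.0 in the whole list. The highest were HoxA region 12, at about 135.8, and HoxA region 10, at about 128.8.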
